A study of Mus musculus with 16 samples.

Results

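Interferon response genes are genes that cells switch on when interferon, or a virus that triggers it, is sensed. The set examined here is a named list of 33 such genes, chosen by symbol and found on the array through the RefSeq accession that each probe carries. Probes were present for 31 of the 33, out of 21368 named genes on the array. Mx1 and Mx2, a pair of antiviral GTPases, had no probe under such an accession and were not analysed here. The 31 genes were followed over 16 one-colour expression arrays of primary cells from C57BL/6 mouse cortex, 4 arrays in each of 4 groups. Neuron control and neuron Klotho cultures came from cortex of embryonic day 16 and received 1xPBS vehicle or 1 nM recombinant secreted Klotho for 24 h at day 14 in vitro. Astrocyte control and astrocyte Klotho cultures received the same 2 treatments. Their growth protocol names pups of postnatal day 0 to 5 and a purity over 98% after shaking, whereas their sample labels give E16. Klotho is a membrane and circulating protein known as a co-receptor for fibroblast growth factor 23, and the series was built to ask what its secreted form does to each cell type. Nothing in the labels ties an array to its own culture or animal, so each p-value below reflects the spread among arrays only, and part of that spread could be technical.

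Type I interferons bind a receptor whose kinases activate a transcription complex, with STAT2 and IRF9 among its subunits, that binds the interferon-stimulated response element (ISRE) in promoters. Interferon gamma acts mainly through another element, the gamma-activated site (GAS), and IRF1 is among the factors made in that second wave. Astrocytes and microglia are both known to respond to interferon in culture, and the induced proteins bind viral RNA, modify other proteins, limit viral replication and load peptides for presentation to T cells.

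Levels are given throughout as log2 of the processed signal minus the 75th percentile of the same array, so 0 is that percentile, and values of different genes are not comparable. Slide 1 held all neuron arrays, with controls in array row 1 and Klotho in array row 2, so row and treatment cannot be told apart in neurons, nor slide and cell type. For astrocytes the deposited sources conflict: by scanner file the controls lie on slide 2 and Klotho on slide 3, whereas the deposited value table places 6 astrocyte columns on other arrays, 4 of them across treatments, so that slide column 3 holds controls and column 4 Klotho. Slide and treatment cannot be told apart under the first reading, nor column and treatment under the second. Both readings give the same treatment for control 1, control 3, Klotho 2 and Klotho 4. Astrocyte arrays are named below by scanner file. Of 10 neuron markers 9 were called higher in neuron controls and of 10 astrocyte markers 9 in astrocyte controls, each against the other cell type. Of all 30545 tested, 9134 were called higher in neuron controls and 6562 in astrocyte controls. Of these markers, 3 for neurons and 1 for astrocytes passed the signal filter through their own cell type alone and so had to be higher there.

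RefSeq promoter windows on GRCm38.p6, 250 bases before to 50 after each start, were available for 26 of the 33 genes. The letters GAAA, any 2 bases and GAAA again, a core of the ISRE, were searched on both strands and occurred in the windows of 13 of the 26 genes (50%), against 3.99% of all 27025 genes with a window. The letters TTCNNNGAA, a core of the GAS that reads the same on both strands, occurred in 7 of the 26 (26.9%), against 9.55% of all genes. A match is a string of letters and not a measured binding site. Windows of 6 genes are shown because the results below turn on these genes. Isg15, Ifit3 and Bst2 were lower in array row 2 of the astrocyte slides under every setting tried, and Rsad2, Irf1 and Tap1 were among the 5 members with the smallest p between the astrocyte treatment groups. Capitals mark the matches, and each window is written 5′ to 3′ along its own gene, with its position and strand in the sentence after the sequences.
Isg15: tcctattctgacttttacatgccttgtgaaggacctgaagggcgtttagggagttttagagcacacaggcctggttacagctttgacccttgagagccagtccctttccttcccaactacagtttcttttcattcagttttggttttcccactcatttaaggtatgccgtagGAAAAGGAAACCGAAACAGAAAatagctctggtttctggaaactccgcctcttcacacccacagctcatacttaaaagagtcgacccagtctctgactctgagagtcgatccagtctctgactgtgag
Ifit3: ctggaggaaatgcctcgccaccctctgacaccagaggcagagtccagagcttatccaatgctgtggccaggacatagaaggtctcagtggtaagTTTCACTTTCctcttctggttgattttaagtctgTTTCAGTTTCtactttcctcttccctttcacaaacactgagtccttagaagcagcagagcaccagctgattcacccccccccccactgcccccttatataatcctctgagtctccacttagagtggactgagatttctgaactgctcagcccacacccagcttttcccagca
Bst2: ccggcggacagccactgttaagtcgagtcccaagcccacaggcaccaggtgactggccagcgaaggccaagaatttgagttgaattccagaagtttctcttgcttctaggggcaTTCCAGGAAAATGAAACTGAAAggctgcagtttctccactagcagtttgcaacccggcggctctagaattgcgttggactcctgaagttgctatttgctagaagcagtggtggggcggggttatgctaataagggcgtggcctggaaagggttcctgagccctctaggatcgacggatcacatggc
Rsad2: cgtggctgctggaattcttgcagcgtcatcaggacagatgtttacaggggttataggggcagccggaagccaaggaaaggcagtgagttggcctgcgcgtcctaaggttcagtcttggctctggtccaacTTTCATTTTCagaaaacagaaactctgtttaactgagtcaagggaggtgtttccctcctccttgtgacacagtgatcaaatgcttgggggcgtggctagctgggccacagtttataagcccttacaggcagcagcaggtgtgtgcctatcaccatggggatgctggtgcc
Irf1: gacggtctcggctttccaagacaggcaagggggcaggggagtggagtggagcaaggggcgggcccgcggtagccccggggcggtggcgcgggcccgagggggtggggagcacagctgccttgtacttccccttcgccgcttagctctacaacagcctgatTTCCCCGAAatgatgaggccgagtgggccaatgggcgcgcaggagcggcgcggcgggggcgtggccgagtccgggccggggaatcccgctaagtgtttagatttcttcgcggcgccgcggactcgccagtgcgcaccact
Tap1: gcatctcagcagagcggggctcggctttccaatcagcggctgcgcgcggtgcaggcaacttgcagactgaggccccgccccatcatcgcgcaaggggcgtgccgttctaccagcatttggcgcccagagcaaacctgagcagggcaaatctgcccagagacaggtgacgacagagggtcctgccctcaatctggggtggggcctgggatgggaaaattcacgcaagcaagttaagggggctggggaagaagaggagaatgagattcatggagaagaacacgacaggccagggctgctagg
These windows lie at chr4:156200769-156201068 (minus strand) for Isg15, chr19:34583279-34583578 (plus) for Ifit3, chr8:71537423-71537722 (minus) for Bst2, chr12:26456403-26456702 (minus) for Rsad2, chr11:53769764-53770063 (plus) for the first of 2 Irf1 windows and chr17:34187306-34187605 (plus) for Tap1. Isg15 held 3 overlapping ISRE cores between bases 173 and 194 of its window. Ifit3 held 2 separate ones and Bst2 held 2 that overlap each other. The first of the Bst2 pair, at bases 121 to 130, also overlaps a GAS core at bases 115 to 123. Rsad2 held 1 ISRE core at bases 131 to 140, on the opposite strand as in Ifit3, and Irf1 held 1 GAS core at bases 161 to 169. Tap1 held neither string in this window. Its window shares 275 bases with that of its neighbour Psmb9, which is read from the other strand, so both genes have the same letters there. Matches of the ISRE core were also present once or more for Ifit1, Oas1a, Oas3, Gbp2, Gbp3, Ifih1, Ddx58, Eif2ak2 and Stat2, and of the GAS core for Ifit2, Ifi35, Psmb8, Oas1a and Eif2ak2.

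Astrocyte cultures held far more RNA of these genes than neuron cultures. Between the controls all 30 tested members were called higher in astrocytes with limma (Benjamini-Hochberg adjusted p under 0.05), against 21.5% of all 30545 probes and genes tested that were called in that direction. The median difference was 6.52 on the log2 scale, against -0.21 over everything tested. Oas3 was the member with a probe that was not tested, being too dim. In bulk RNA fewer cells of a type and less RNA per cell cannot be told apart. Of the 30 members 9 passed the signal filter through astrocytes alone and so had to differ, namely Ifit1, Irf7, Oasl1, Rsad2, Oas1a, Usp18, Parp14, Ifi44 and Xaf1. Their calls and p-values support nothing, and their differences rest in part on neuron signals at background. The other 21 were well above background on all 8 arrays, were all called and had a median of 5.52.

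**Figure D1:**
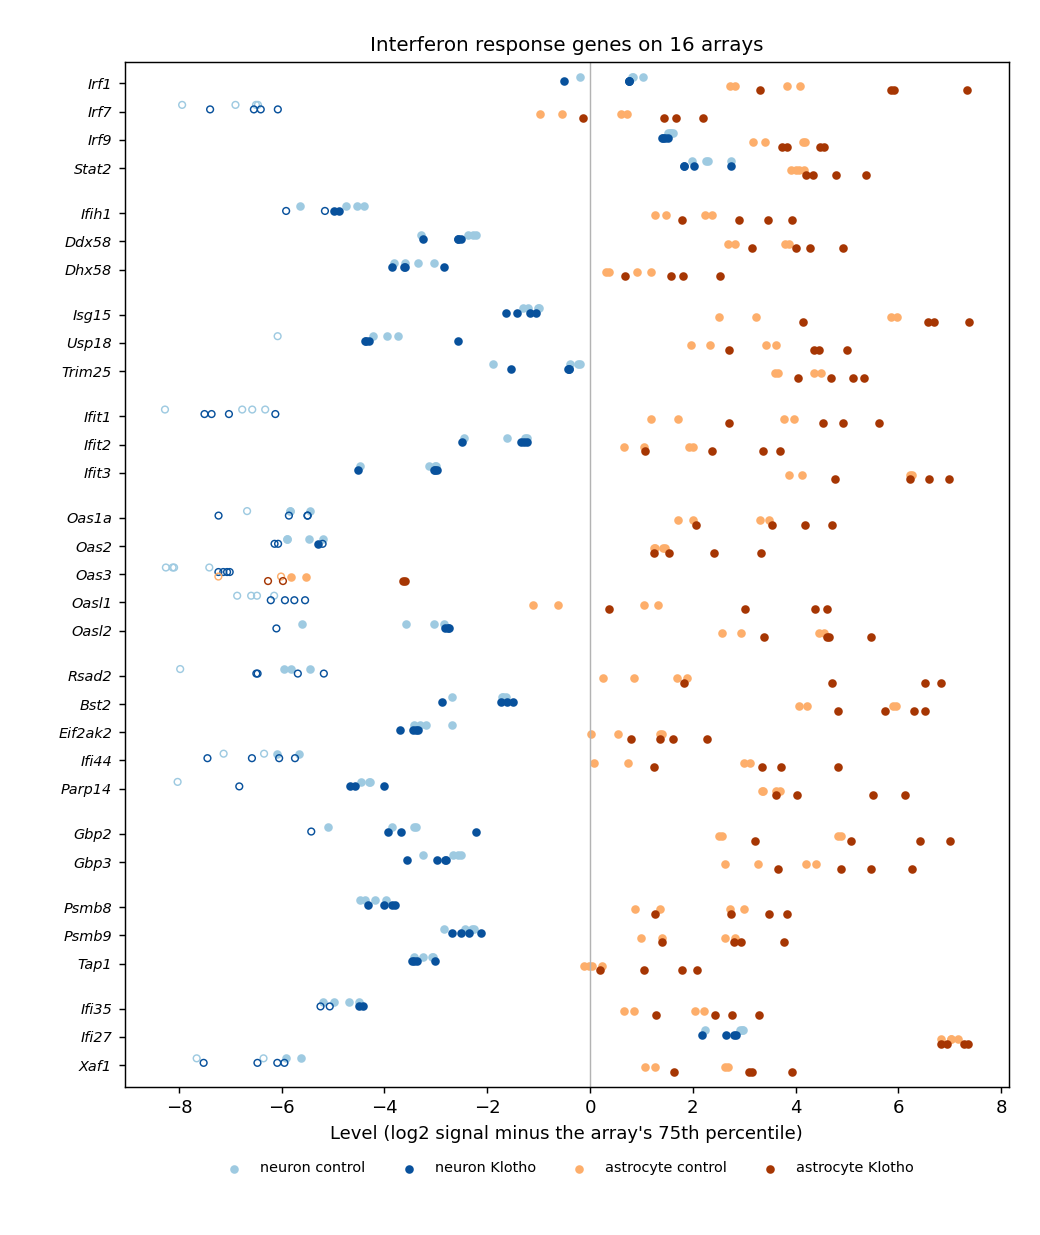
Level of 31 interferon response genes (log2 signal minus the array's 75th percentile, x axis) on each of 16 arrays, coloured by group and ordered by role from transcription factors at the top. Filled points were well above background and open points were not. Astrocyte points lie to the right of neuron points for every gene shown except Oas3, whose lowest astrocyte points fall among the neuron ones.

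The transcription factors had the smallest median difference of the 9 role groups, 2.45. Stat2, a subunit of the type I interferon transcription complex, read 2.74, 2.30, 1.99 and 2.26 on the neuron control arrays and 4.01, 4.07, 4.16 and 3.92 on the astrocyte control arrays. Its difference of 1.72 (SE 0.21, limma adjusted p 0.000129) was the smallest among the tested members. Irf9, which brings that complex to DNA, averaged 1.57 ± 0.038 (SD, n = 4) in neuron controls and 3.73 ± 0.51 in astrocyte controls, a difference of 2.16. Irf1, a factor of both interferon pathways, averaged 0.62 ± 0.56 and 3.37 ± 0.69. These 3 factors were well above background on every neuron array, unlike Irf7. Irf7, the factor that amplifies interferon alpha production, was not well above background on any neuron array and read 0.61, 0.73, -0.54 and -0.96 in astrocyte controls. Its signal there was at least 74.2-fold higher (limma adjusted p 3.88e-06). Such bounds set the mean of the bright group against, on each dim array, the higher of the gene's own signal and the lowest signal among probes well above background.

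All 3 cytoplasmic sensors of viral RNA were detected in neuron controls, at low levels. Ifih1 (MDA5), which binds long double-stranded RNA, read -5.64, -4.74, -4.53 and -4.41 in neuron controls and 2.24, 2.38, 1.48 and 1.27 in astrocyte controls. The groups lay apart by 6.67 (SE 0.36, limma adjusted p 9.92e-07). For Ddx58 (RIG-I), which binds short RNA with a triphosphate end, the difference was 5.83 (SE 0.37). Dhx58 (LGP2), a regulator of both sensors, differed by 4.14 (SE 0.27).

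In the ISG15 system, a ubiquitin-like modifier with its attaching and removing enzymes, Isg15 itself read -1.30, -1.20, -1.0 and -1.01 in neuron controls and 5.86, 5.98, 3.24 and 2.51 in astrocyte controls. Neuron arrays lay close together, while the astrocyte arrays split into a high pair and a low pair. The difference was 5.52 (SE 0.76, limma adjusted p 0.000299). Usp18, the protease that removes ISG15 and dampens the receptor, differed by 7.33 (SE 0.58), with 3 of 4 neuron control arrays above background. Trim25, a ubiquitin and ISG15 ligase that acts on RIG-I, differed by 4.71 (SE 0.42).

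The IFIT family, which binds foreign RNA ends and blocks their translation, ranged widely. Ifit1 was not well above background on any neuron array and was at least 467-fold higher in astrocyte controls (limma adjusted p 5.77e-06). Ifit3, a partner of IFIT1, read -4.47, -3.01, -3.0 and -3.13 in neuron controls and 6.22, 6.26, 4.13 and 3.88 in astrocyte controls. That is a difference of 8.53 (SE 0.63). Ifit2 differed by 3.05 (SE 0.39). Ifit3 has a near-identical copy, Ifit3b, and the Oas1 family has many, so probes of these genes may not tell the copies apart.

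The OAS family makes a second messenger that activates RNase L. Oas2 differed by 6.96 (SE 0.22), with the smallest adjusted p among the members in limma (9.52e-08), and its 4 astrocyte control arrays lay between 1.24 and 1.46. For Oas1a the difference was 8.58 (SE 0.46), with 3 of 4 neuron control arrays above background. Oasl1 was at least 85.0-fold higher in astrocyte controls, and Oasl2 differed by 7.40 (SE 0.69). Oas3 was above background on 2 of 4 astrocyte control arrays and on no neuron array. Its astrocyte mean thus also rests in part on background, and no bound is given for it.

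Other antiviral effectors followed the same order of cell types. Bst2 (tetherin), which holds budding virus at the membrane, read -2.69, -1.71, -1.64 and -1.70 in neuron controls and 5.89, 5.95, 4.22 and 4.06 in astrocyte controls, a difference of 6.97 (SE 0.50, limma adjusted p 5.08e-06). Rsad2 (viperin), which makes a chain-terminating nucleotide, differed by 7.47 (SE 0.59), with 3 of 4 neuron control arrays above background. Parp14, an ADP-ribosyl transferase, differed by 8.78 (SE 0.78), also with 3 of 4 neuron control arrays above background. Eif2ak2 (PKR), the kinase that stops translation on double-stranded RNA, differed by 3.99 (SE 0.35), and Ifi44 by 8.04 (SE 0.71), the latter with 2 of 4 neuron control arrays above background.

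Guanylate-binding proteins, which attack membranes around pathogens, differed by 7.64 (SE 0.66) for Gbp2 and 6.37 (SE 0.40) for Gbp3. Among genes that prepare peptides for MHC class I, Tap1, a subunit of the peptide transporter, read -3.05, -3.07, -3.25 and -3.43 in neuron controls and -0.11, 0.04, 0.24 and -0.03 in astrocyte controls. Its difference was 3.24 (SE 0.18, limma adjusted p 1.28e-06). The immunoproteasome subunits Psmb8 and Psmb9 differed by 6.23 (SE 0.46) and 4.43 (SE 0.42). Of the remaining interferon-induced genes, Ifi27 differed by 4.24 (SE 0.22), Ifi35 by 6.28 (SE 0.39) and Xaf1, with 2 of 4 neuron control arrays above background, by 8.30 (SE 0.54).

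With the 3 members that were dim on all neuron control arrays placed at their bounds, the median difference was 6.32. Between the Klotho groups, which share no array with the controls, the same 30 members were called higher in astrocytes, against 27.4% of 27803 tested, with a median of 7.79 and 7.65 with 7 members at their bounds. The bounds there were 997-fold for Ifit1, 1330.4-fold for Rsad2, 565-fold for Oas1a, 447-fold for Ifi44, 390.4-fold for Oasl1, 354-fold for Xaf1 and 112-fold for Irf7. Of these 30 members 13 passed the signal filter through astrocytes alone and so had to differ, and their calls support nothing. The other 17 were well above background on every array of both groups, were all called and had a median of 5.16.

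Markers of microglia, immune cells of the brain that are known to grow in astrocyte cultures, were higher in the same direction. All 12 tested had a positive difference between the controls and 11 were called, against 21.5% of everything tested that was called in that direction. Those called with limma included Csf1r at 6.11 (SE 0.21), Tmem119 at 6.97 (SE 0.28) and Ptprc at 5.01 (SE 0.23). Of the 12 markers 2 passed the signal filter through astrocytes alone and so had to be higher there. The median level over these markers lay between -3.80 and -1.15 on the neuron arrays and between 2.80 and 3.76 on the astrocyte arrays. P2ry12, a defining marker, was above background on 1 of 8 neuron arrays and on all 8 astrocyte arrays. The part of microglia in the difference of the interferon response genes was not tested.

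No interferon response gene changed with Klotho in neurons by the test used. Of 22 tested members 9 had a positive and 13 a negative difference of Klotho minus control, against 43.8% positive over all 28847 tested. The members' median was -0.05 and that of everything tested -0.03. The sign of this median rested on single arrays: without control 1 it was -0.25 with 3 of 25 positive, and without Klotho 1 it was 0.14 with 13 of 23 positive, with none called in either case. None of the 22 was called by limma, against 0.125% of all tested, and none had an unadjusted p under 0.05, against 4.12% of all tested. Differences ran from -0.41 for Ifih1 to 0.59 for Usp18. Of the 22 members 5, Ifih1 among them, passed the signal filter through the controls alone, which favoured a negative difference. Usp18 was the 1 that passed through the Klotho arrays alone, which favoured a positive one. The other 16 were well above background on every array of both groups. Of these 5 were positive, with a median of -0.12 and none called. The limma adjusted p was 0.998 for each of the 5 members named next, which have the smallest p.

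Eif2ak2 read -3.44, -2.68, -3.20 and -3.32 in controls and -3.70, -3.35, -3.45 and -3.38 with Klotho. It encodes the kinase PKR named above. The groups overlapped, and the difference was -0.31 (SE 0.18). Psmb8 read -4.37, -4.47, -3.97 and -4.18 in controls and -4.32, -3.80, -4.01 and -3.85 with Klotho, a difference of 0.25 (SE 0.16). For Irf9 the 4 control arrays, at 1.58, 1.56, 1.52 and 1.62, did not overlap the 4 Klotho arrays, at 1.52, 1.46, 1.40 and 1.41. It was the only one of the 22 without overlap, against 2.71% of all tested whose Klotho arrays all lay below the controls, and its difference was -0.12 (SE 0.089). Gbp3 differed by -0.30 (SE 0.22) and Isg15 by -0.20 (SE 0.15), with overlapping groups.

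**Figure D2:**
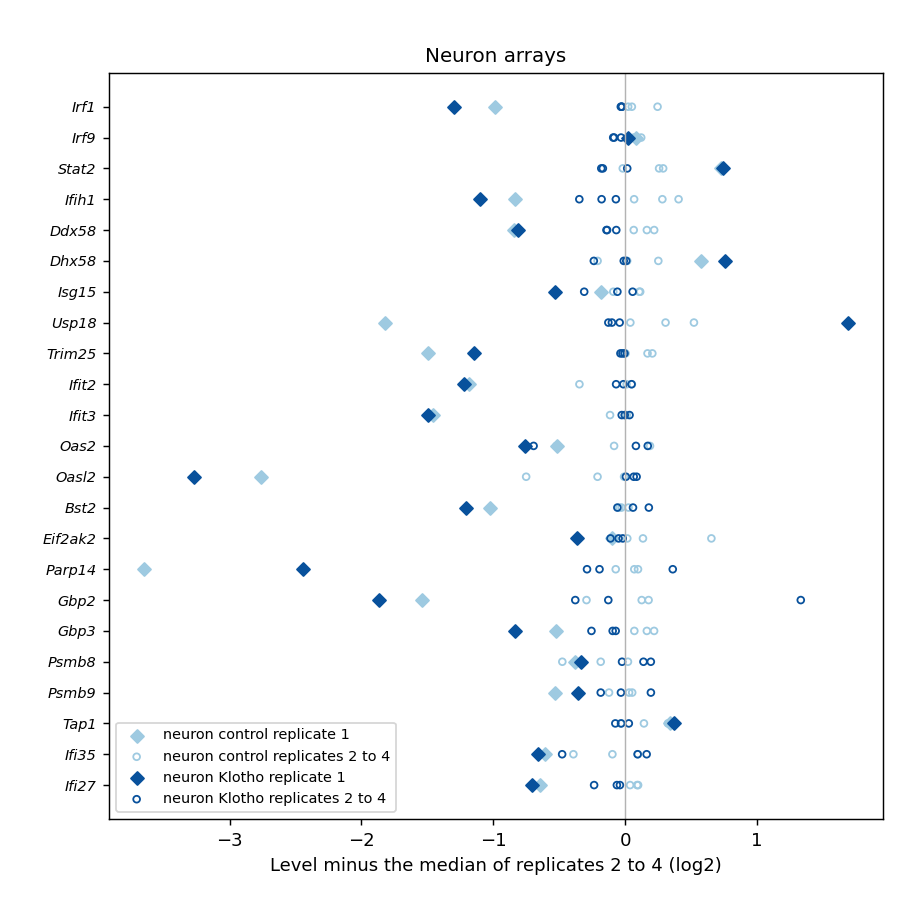
Level of 23 interferon response genes on the 8 neuron arrays, each minus the median of replicates 2 to 4 of both groups (log2, x axis). Diamonds are the 2 arrays numbered replicate 1, control in light and Klotho in dark blue, and circles are the other 6. Both diamonds lie left of all circles for 14 genes and right of them for Dhx58, Stat2 and Tap1.

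Both neuron arrays numbered replicate 1, which share slide column 1, stood apart from the other 6. Of 23 members above background on at least 4 neuron arrays, 14 (60.9%) were lower on both than on any other neuron array, against 26.3% of all 29687 measured. Irf1 read -0.20 on control 1 and -0.51 on Klotho 1, and between 0.76 and 1.04 on the others. Ifit3 read -4.47 and -4.51 there, and between -3.13 and -2.98 on the others. Trim25, with -1.90 and -1.54 against -0.43 to -0.19, showed the same order, as did Bst2, Ifit2, Ddx58, Ifih1, Oasl2, Parp14, Gbp2, Gbp3, Psmb9, Ifi35 and Ifi27. In the opposite direction, Stat2 read 2.74 and 2.75 on these arrays and 1.83 to 2.30 on the others, and Dhx58 and Tap1 were likewise highest there. Usp18 split the pair, with the lowest value on control 1 (-6.08, not above background) and the highest on Klotho 1 (-2.57). The median level over microglia markers was -3.46 and -3.80 on the replicate 1 arrays and -1.89 to -1.15 on the other 6. Neuron markers were highest on the same arrays, with medians of 4.97 and 4.88 against 4.61 to 4.78. Medians of the other marker lists were lower there: 1.21 and 1.12 against 1.38 to 1.76 for astrocytes, 1.29 and 1.10 against 1.58 to 2.19 for oligodendrocytes, and -2.99 and -3.17 against -2.47 to -2.03 for meningeal fibroblasts. Endothelial markers did not set these arrays apart. The part of any of these lists was not tested. Without both arrays 25 members were tested for Klotho, 9 of them positive, with a median of -0.10 and none called.

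In astrocytes every tested member was higher with Klotho by scanner file, but none passed the test. All 30 had a positive difference, against 48.5% of all 27145 tested, with a median of 1.03 and a range from 0.10 for Ifi27 to 3.80 for Rsad2. By quantile normalization 29 were positive. None was called by limma, as was nothing else (0% of all tested), and each adjusted p was 1.00. An unadjusted p under 0.05 with a positive difference was found for 10 members, against 1.94% of all tested. The Klotho arrays were uneven: Klotho 1, Klotho 2 and Klotho 4 lay above every control for 26, 30 and 26 of the members, and Klotho 3 did so for 2.

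**Figure D3:**
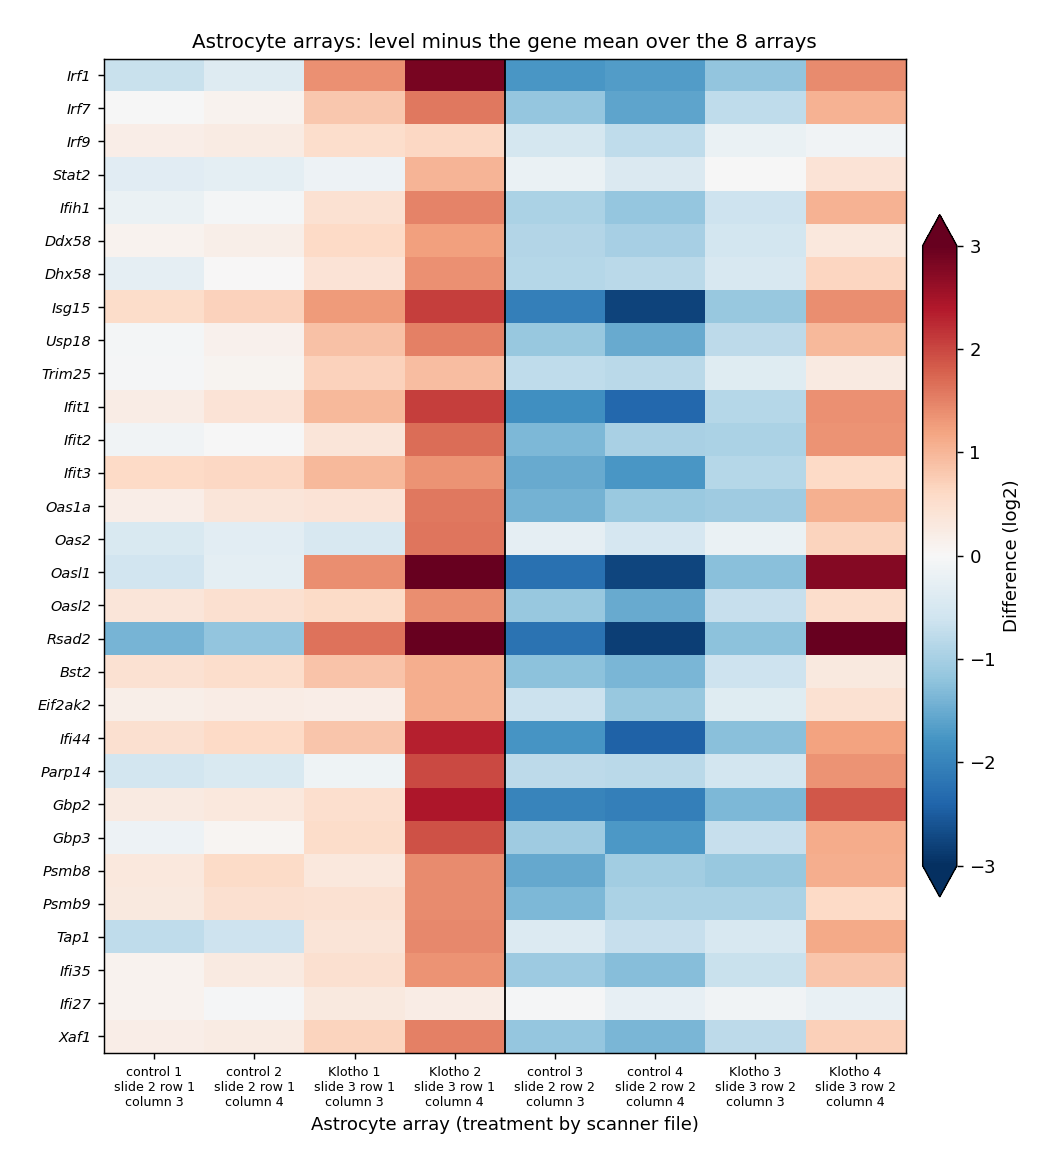
Level of 30 interferon response genes on the 8 astrocyte arrays, as the difference from each gene's mean over these arrays (log2, colour scale ending at ±3), with genes in rows and arrays in columns. Arrays are ordered by array row (black line between row 1 and row 2), slide and slide column, and treatment is that of the scanner file. Klotho 2 and Klotho 4 are red for nearly all genes, and control 3, control 4 and Klotho 3 are blue.

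Rsad2 read 1.68, 1.88, 0.86 and 0.25 on controls 1 to 4 and 4.71, 6.84, 1.83 and 6.51 on Klotho 1 to 4. Klotho 3 lay among the controls and the other 3 Klotho arrays lay above them all, for a difference of 3.80 (SE 1.01). Oasl1 repeated this order with 1.05, 1.33, -0.62 and -1.12 in controls and 3.02, 4.61, 0.38 and 4.37 with Klotho, a difference of 2.93 (SE 0.96). For Irf1 the controls read 3.83, 4.09, 2.73 and 2.82 and the Klotho arrays 5.86, 7.34, 3.30 and 5.91. That is 2.24 higher with Klotho (SE 0.77). Tap1 read -0.11, 0.04, 0.24 and -0.03 in controls and 1.05, 2.09, 0.19 and 1.79 with Klotho, which gives 1.24 (SE 0.39). Parp14 read 3.62, 3.70, 3.37 and 3.35 in controls and 4.03, 6.14, 3.61 and 5.51 with Klotho, a difference of 1.31 (SE 0.53). In all 5 genes Klotho 3 overlapped the controls.

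Stat2 was the only one of the 30 whose groups did not overlap, with controls between 3.92 and 4.16 and Klotho arrays at 4.20, 5.38, 4.35 and 4.78, against 0.998% of all tested whose Klotho arrays all lay above the controls. Ifi27, a small membrane protein gene, had the smallest difference, with 7.17, 7.02, 7.02 and 6.82 in controls and 7.36, 7.28, 6.95 and 6.83 with Klotho. Between these, the role groups had medians from 0.85 for the peptide-loading genes Psmb8, Psmb9 and Tap1 to 1.59 for the GTPases Gbp2 and Gbp3. The ISG15 system had a median of 1.29 and the IFIT family one of 1.22.

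Set against the control array at the same position of the other slide, Klotho 4 had the widest gap and Klotho 3 the narrowest. Klotho 4 exceeded control 4 in 30 of 30 members with a median of 2.14 and a maximum of 6.26 for Rsad2. Klotho 2 exceeded control 2 in 30 with a median of 1.37, Klotho 1 exceeded control 1 in 29 with a median of 0.43, and Klotho 3 exceeded control 3 in 28 with a median of 0.39. Over the 31 genes with a probe, Klotho 2 was the highest astrocyte array in 30 and control 4 the lowest in 23. These are single arrays, so no test goes with them. Restricted to the 4 arrays whose treatment both sources share, 30 of 31 tested members were positive with a median of 1.85. None was called, against 2 of all 29189 tested, whose median was -0.04. Oas3 was tested here because it passed the signal filter through the Klotho arrays alone, which favoured a positive difference. On these 4 arrays treatment, slide and slide column cannot be told apart. In the full comparison by scanner file, leaving out Klotho 3 gave a median of 1.5, the highest with any 1 array left out. Leaving out Klotho 2 gave the lowest, 0.73, and without control 3 or control 4 it was 0.83 and 0.82. All 30 were positive and none was called in each case.

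Read by the deposited value table, Klotho minus control is slide column 4 minus column 3. There 28 of 30 members were positive, against 43.6% of all tested, with a median of 0.64. That median was 0.20 without Klotho 2, 0.38 without control 3, 0.41 without Klotho 4 and 1.16 without control 4. None was called by limma (0% of 27221 tested), and none reached an unadjusted p under 0.05, against 2.29% of all tested. The 5 members with the smallest p were Parp14 at 1.02 (SE 0.60), Oas2 at 0.72 (SE 0.44), Psmb8 at 1.02 (SE 0.63), Ifit2 at 1.02 (SE 0.63) and Oas1a at 0.94 (SE 0.64). The column gap was wider on slide 3: Klotho 2 minus Klotho 1 and Klotho 4 minus Klotho 3 had medians of 1.00 and 1.63 over the members, while control 2 minus control 1 and control 4 minus control 3 had medians of 0.13 and -0.22. Oas2 is an example, with 1.27, 1.41, 1.46 and 1.24 in controls 1 to 4 and 1.25, 3.33, 1.53 and 2.41 in Klotho 1 to 4. The difference in column gap between the slides was not tested.

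Members were lower in array row 2 than in row 1 of both astrocyte slides. With slide as a block, all 30 had a negative difference, while 52% of everything tested had a positive one. Their median was -1.23 and that of everything tested 0.04, and by quantile normalization 26 of the 30 were negative. With limma 16 of the 30 were called lower, against 22.9% of all 27966 tested, and none was called higher, against 25.2%. Rows 1 and 2 differed for 48.1% of everything tested, so a call is common here. Each row held 2 control and 2 Klotho arrays by either source.

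**Figure D4:**
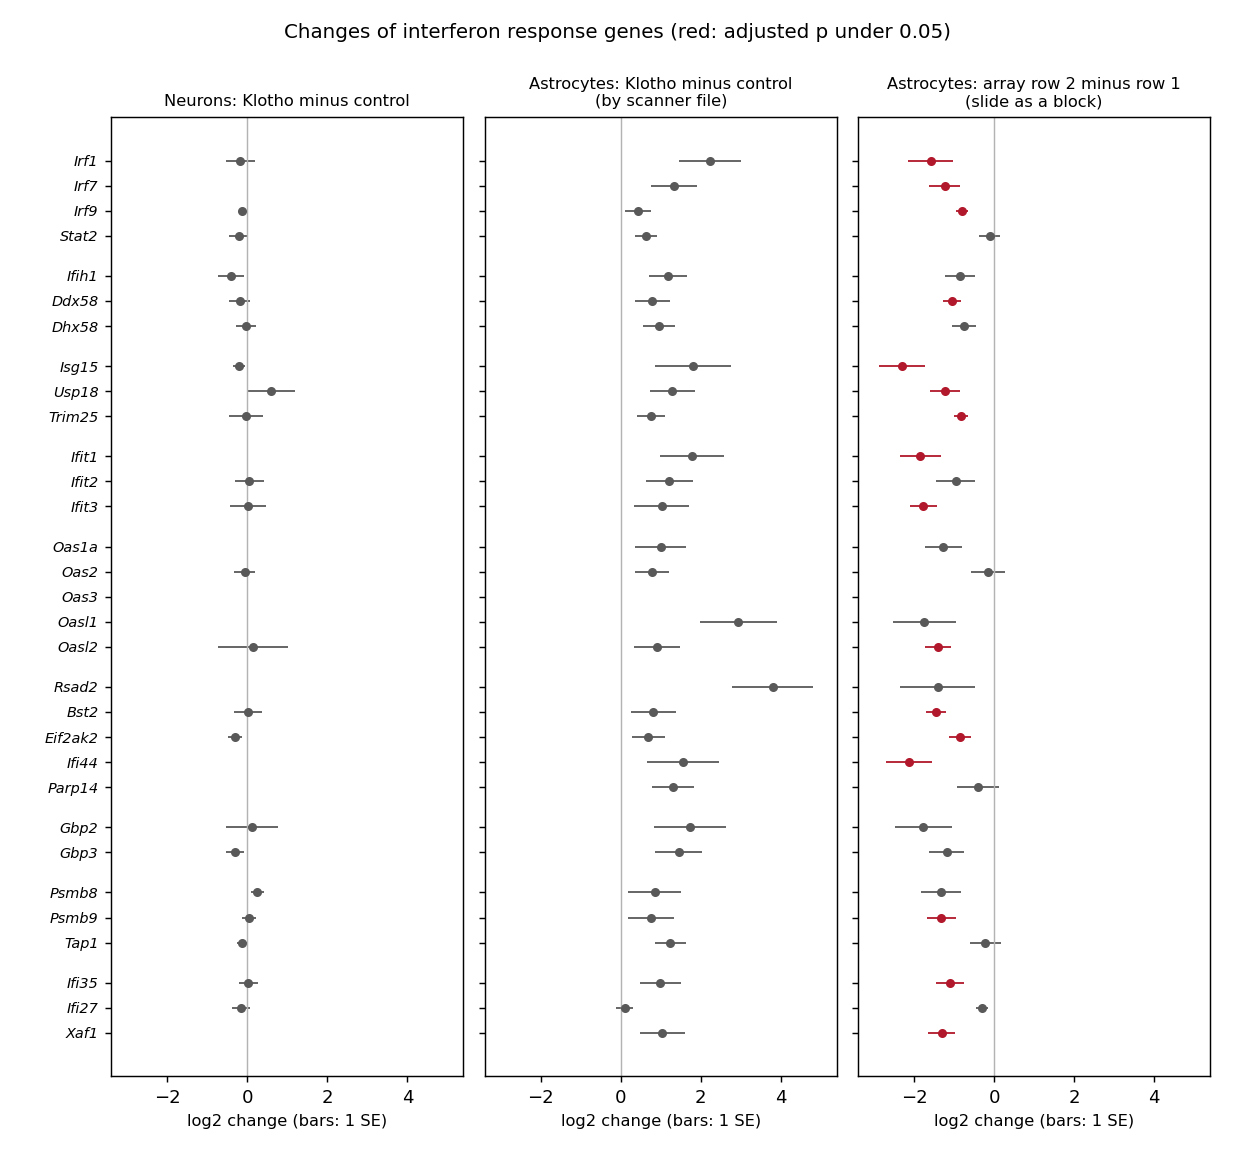
Log2 difference with 1 standard error (x axis) of each interferon response gene in 3 comparisons: Klotho minus control in neurons (left), Klotho minus control in astrocytes by scanner file (middle) and array row 2 minus row 1 in astrocytes with slide as a block (right). Red marks a limma adjusted p under 0.05, and genes without a point were not tested. Points centre near 0 on the left, lie right of 0 in the middle without a red one, and lie left of 0 on the right, where 16 are red.

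Bst2 read 5.89, 5.95, 6.30 and 6.52 on the row 1 arrays (control 1, control 2, Klotho 1, Klotho 2) and 4.22, 4.06, 4.82 and 5.74 on the row 2 arrays (control 3, control 4, Klotho 3, Klotho 4). The rows did not overlap, and the difference was -1.46 (SE 0.24, limma adjusted p 0.00424). Irf9 read 4.15, 4.18, 4.48 and 4.56 in row 1 and 3.41, 3.18, 3.73 and 3.83 in row 2, again without overlap, for -0.80 (SE 0.14, adjusted p 0.00452). Bst2 and Irf9 were the only 2 of the 30 without overlap, a smaller share than the 21.5% of all tested. Ifit3 read 6.22, 6.26, 6.59 and 6.98 in row 1 and 4.13, 3.88, 4.77 and 6.23 in row 2, a difference of -1.76 (SE 0.35, adjusted p 0.00601). Its Klotho 4 value lay among the row 1 controls. Isg15 read 5.86, 5.98, 6.58 and 7.37 in row 1 and 3.24, 2.51, 4.15 and 6.69 in row 2, the widest called difference at -2.30 (SE 0.57, adjusted p 0.0136).

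Across the roles, all 3 members of the ISG15 system were called lower in row 2, with Trim25 at -0.83 (adjusted p 0.00816) and Usp18 at -1.23 (0.0263) beside Isg15. Of the transcription factors Irf1, at -1.59 (0.0495), Irf7 and Irf9 were called and Stat2, at -0.11 (0.746), was not. Irf1 was called under 6 of the 17 settings tried and Irf7 under 10, against 16 for Irf9. Ddx58, at -1.05 (0.00855), was the called one of 3 RNA sensors. Ifit1 was called at -1.84 (0.0202), and in the OAS family Oasl2 was called at -1.40 (0.0105) while Oas2, at -0.16 (0.783), was not. Among further effectors Ifi44 was called at -2.12 (0.0179), Eif2ak2 at -0.85 (0.0387), Xaf1 at -1.31 (0.0162) and Ifi35 at -1.10 (0.0318). Neither GBP gene was called, although with slide column as a second block Gbp2, at -1.77 (0.0382), and Gbp3, at -1.18 (0.0424), both were. Adjusted p-values in this paragraph are those of limma.

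Markers of other cells were also called between the rows, where 22.9% of everything tested was called lower in row 2 and 25.2% higher. Of meningeal fibroblast markers 3 of 5 tested were called lower in row 2 and 1 higher, with a median of -0.85. Of endothelial markers 3 of 5 were called higher, with a median of 0.64. Astrocyte markers had a negative difference in 8 of 10, with 2 called lower and a median of -0.29, and of oligodendrocyte markers 2 of 10 were called higher. Of 12 microglia markers 9 were positive and 1 was called higher. The calls of astrocyte, oligodendrocyte and microglia markers did not exceed the shares over everything tested. The part of these cells in the row difference of the interferon response genes was not tested.

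The neighbours Psmb9 and Tap1, whose promoter windows share their letters, differed in their calls between rows. Psmb9 read 2.63, 2.82, 2.79 and 3.77 in row 1 and 1.00, 1.40, 1.40 and 2.94 in row 2, a called difference of -1.32 (SE 0.37, limma adjusted p 0.020). Tap1 read -0.11, 0.04, 1.05 and 2.09 in row 1 and 0.24, -0.03, 0.19 and 1.79 in row 2, a difference of -0.22 (SE 0.39, adjusted p 0.657). The 2 genes were not tested against each other.

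The count of called members in the row comparison moved with single arrays. Without control 1, 2, 3 or 4 it was 8, 8, 9 and 8, and without Klotho 1, 2, 3 or 4 it was 20, 11, 12 and 25. Calls over everything tested went from 8599 of 28026 without control 1 to 15782 of 28133 without Klotho 2, and did not follow the members' count. It was 6 by quantile normalization and 25 by median scaling, which also moved the median of everything tested from 0.04 to -0.40. Ifit3, Isg15 and Bst2 were called under all 17 settings tried. Within slide 2 the median of row 2 minus row 1 over the members was -1.12 at column 3 and -1.51 at column 4, and within slide 3 it was -1.35 and -0.65. A fit with slide, column and row together called 21 members lower in row 2, against 24% of all 27145 tested, and none for slide (smallest adjusted p 0.346) or column (0.629).

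The astrocyte and neuron Klotho differences were compared directly with an interaction term over all 16 arrays. All 30 tested members had a more positive difference in astrocytes, as had 52.3% of all 30696 tested. The members' median was 1.00 and that of everything tested 0.02. None was called by limma, against 0.0749% of all tested, and 7 had an unadjusted p under 0.05, against 4.87%. The 5 members with the smallest p were Tap1 at 1.36 (SE 0.44, adjusted p 0.797), Rsad2 at 3.46 (SE 1.23, 0.904), Irf1 at 2.42 (SE 0.91, 0.933), Ifih1 at 1.58 (SE 0.60, 0.944) and Gbp3 at 1.74 (SE 0.67, 0.954). Without astrocyte Klotho 3 limma called 3 of them, namely Tap1 at 1.73 (adjusted p 0.0256), Rsad2 at 4.51 (0.0375) and Irf1 at 3.18 (0.0481), when 150 of 30789 tested were called in all. The 30 include 8 members that were too dim to be tested in neurons, Rsad2 among them, so their neuron change is one between signals partly or wholly at background. Over the 16 members above background on all 16 arrays the median was 0.98, all were positive and none was called.

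Ifnb1, the gene for interferon beta, is one of the ligands that start the pathway. It read -7.39, -6.11, -7.54 and -7.60 in astrocyte controls and 0.36, 2.55, -4.28 and 2.41 with Klotho by scanner file. All 4 Klotho arrays were above background and 1 of 4 controls was, for a measured difference of 7.42 (SE 1.36, limma adjusted p 1.00) that rests on control signals mostly at background. It was not above background on any neuron array. The order of the Klotho arrays, with Klotho 3 lowest, was that of Rsad2. The 6 other tested ligand genes, among them Ifna1 and Ifnl3, had differences from -0.28 to 0.65, and Ifng was above background on 2 arrays of each astrocyte group. Of the 7 tested, Ifnb1 passed the signal filter through the Klotho arrays alone, which favoured a positive difference. Another 3 passed through the controls alone, which favoured a negative one. Between the rows 4 of 8 tested ligand genes, Ifnk, Ifna5, Ifna12 and Ifnab, were called higher in row 2, against 25.2% of all tested. Of these 8, 4 passed the signal filter through row 2 alone and so had to be higher there, and 1 through row 1 alone. The median level over 9 ligand genes lay between -5.54 and -3.37 on the astrocyte arrays. Ifnb1 was not tested between the rows.

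All 6 interferon receptor genes were tested. The type I subunit Ifnar1 was higher in neuron controls, with a log2 difference of -1.62 (SE 0.17, limma adjusted p 4.59e-05) of astrocytes minus neurons. Il10rb, shared by the receptors of interferon lambda and interleukin 10, and Ifngr1, of the gamma receptor, were higher in astrocytes at 4.98 (SE 0.36, adjusted p 4.97e-06) and 2.38 (SE 0.23, adjusted p 2.88e-05). With Klotho in astrocytes 5 of the 6 were positive and none was called. Between array rows 3 were called lower in row 2, led by Ifngr2 at -1.18 (SE 0.21, adjusted p 0.00479).

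Other genes known to be induced by interferon, a list of 38 with 36 on the array, are not members. With Klotho in astrocytes 32 of 34 tested were positive with a median of 1.17 and none called. Between rows 32 of 34 were negative with a median of -1.04, and 9 were called lower, a share close to the 22.9% of all tested. Between the controls 31 of 33 were called higher in astrocytes, against 21.5% of all tested. Of these 33, 4 passed the signal filter through astrocytes alone and so had to be higher there. Cxcl10, a chemokine for T cells, read 5.33, 5.43, 3.38 and 2.18 in astrocyte controls and 8.28, 8.51, 4.97 and 7.90 with Klotho, a difference of 3.34 (SE 0.96, limma adjusted p 1.00). Of 13 tested genes of MHC class I and II presentation 12 were positive with Klotho in astrocytes, with a median of 0.63.

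Targets of NF-kB, the other main transcription factor of inflammation, were also highest on Klotho 2 and Klotho 4 of the astrocyte arrays. All 19 tested were positive with Klotho by scanner file, with a median of 4.18 and none called by limma. Of these, 4 passed the signal filter through the Klotho arrays alone and so had to be higher there. Their median level was -0.90, -0.96, -2.30 and -2.02 on controls 1 to 4 and 2.10, 4.62, -1.27 and 4.67 on Klotho 1 to 4. The median level over the interferon response genes on the same arrays was 3.32, 3.48, 1.70 and 1.40, and then 4.03, 4.83, 2.06 and 4.19. Microglia markers did not share this order, with medians between 3.25 and 3.76 in controls and between 2.80 and 3.48 with Klotho, and 2 of 12 positive. Oligodendrocyte markers were lower on the high arrays, with medians of -0.59, -0.62, -0.56 and -0.35 on controls 1 to 4 and -1.18, -1.92, -0.72 and -1.50 on Klotho 1 to 4. Of these markers 7 of 10 had a negative difference, and none was called by limma. An unadjusted p under 0.05 with a negative difference was found for 4 of the 10, against 440 of all 27145 tested. The signal filter was passed through the controls alone by 1 of the 10, which favoured a lower value with Klotho. The part of NF-kB targets, microglia or oligodendrocyte-lineage cells in the astrocyte differences was not tested.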

How the data were processed

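Gene expression was measured on 16 one-colour Agilent arrays, labelled from 200 ng of RNA. Per the file headers, the scanner files hold Feature Extraction 12.0.3.1 output on probes placed on mm9, and the deposited intensity used for each spot is its processed signal. The deposited value table holds one score per probe and array. Set against the scanner intensities, each of its columns is the log2 signal with a mean of 0 and an SD of 1, of its own array in 10 columns and of another astrocyte array in 6. No per-sample column was left unassigned (0).

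Control spots were left out, the spots of a probe averaged, log2 taken and each array's 75th percentile subtracted. The deposited intensities are linear, so log2 values here are computed ones. Of 55681 probes 28331 (50.9%) matched a gene symbol through RefSeq accessions, and the brightest probe stood for a gene. Probes without a name were tested on their own. A gene entered a test when every array of 1 or both groups read it well above background. Tests were done with limma 3.58.1 in R 4.3.3, Benjamini-Hochberg adjusted over all tested at 0.05, and the fits were tested on simulated data. Between 57.5% and 67.3% of spots were well above background per array. The number of arrays limits the precision.

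Members and lists were chosen with earlier results of these data known. Tests were to be printed for called members up to the 12 with the smallest p, or for the 5 with the smallest p where fewer were called. Differences of further members are given to complete the roles and were chosen with their values seen. Replicate numbers from the sample titles follow array positions. Deviations of arrays of one number had r 0.21 to 0.81 in neurons, 0.17 to 0.78 in astrocytes and -0.17 to 0.33 across cell types. Neuron replicates 2 and 3 and astrocyte replicate 2 matched an array of another number best. The fits reported above for Klotho and for cell type took no replicate pairs. The replicate number was a block only among the alternatives. Alternatives were normexp (offset 50, on the median spot signal because the mean signal that had been planned was not in the files used), median and quantile scaling, other filters and probe rules, the value table, blocks, and leaving out arrays. One further gene is not reported here.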

Additional observations from a re-analysis of the deposited data

Results flagged for a closer look

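In 11 of 98 sets of 4 arrays of one gene and group, 1 array lay farther from the other 3 than Dixon's criterion for 4 values allows. Chance alone gives about 1 in 20, and neither the sets nor the genes are independent. All 11 were neuron arrays of replicate 1. Low values on control 1 were found for Ifit3 (-4.47, others -3.13 to -3.0), Ddx58 (-3.28, others -2.37 to -2.22), Bst2 (-2.69, others -1.71 to -1.64), Ifi27 (2.23, others 2.91 to 2.97) and Trim25 (-1.90, others -0.39 to -0.19). Low values on Klotho 1 were found for Ifit2 (-2.49, others -1.34 to -1.23), Ifit3 (-4.51, others -3.04 to -2.98), Ddx58 (-3.25, others -2.58 to -2.50), Irf1 (-0.51, others 0.76) and Trim25 (-1.54, others -0.43 to -0.40). Usp18 was high on Klotho 1, at -2.57 against -4.39 to -4.30.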

How the results depend on the processing

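Counts of called members stayed within 1.5 times of the reported ones, and no direction of a called value turned, under the alternatives run, except as follows. In neurons 1 member, Oas3, was called for Klotho without the filter on dim probes, although it was at background on all 8 neuron arrays and 7152 of 48718 tested were called there. Between astrocyte array rows, 25 members were called by median scaling, 6 by quantile normalization and 8 to 25 with 1 array left out. Between the Klotho groups of both cell types, 17 were called when only genes above background on all arrays were tested, since 13 fewer were then tested. For the difference between the Klotho effects, 0 to 3 were called with 1 array left out. The cause was not tested for the other shifts. With the replicate number as a block, the count of called members remained 0 in neurons and 0 in astrocytes for Klotho, and 30 in both comparisons of cell types. In the row comparison 24 of 192 single-gene values lost their call. With 4 arrays per group, small differences cannot be shown, and genes near background have at most bounds.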
